A study of Mus musculus with 12 samples.

Results

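Egfl6 and 3 genes related to it, Egfl7, Egfl8 and Npnt, were followed across RNA sequencing libraries of the aged mouse brain. They were chosen by symbol: Egfl6 because it differed between knockout and wildtype astrocytes, and the other 3 because they are its relatives by name or by domain structure. All 4 were found among the 41388 genes counted, and all 4 passed the filter on low counts. The astrocyte difference of Egfl6 is therefore given as a description, with no test, and so are the other 3 genes in the same contrast.

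The libraries came from mice labelled Cre+ knockout (KO) or Cre- wildtype (WT). All 8 mice carried Bmal fl/fl, with loxP sites on both copies of the clock gene Bmal1 (Arntl in the files), and the strain label of every sample also names ALDH1L1-CreERT2, a Cre recombinase driven by an astrocyte promoter and active only with tamoxifen. Mice of both labels, on a C57BL\6 background, were gavaged with tamoxifen at 2 months of age, 2 mg a day for 5 days, and brains were taken at 20 months. After dissociation, cells were captured with beads against ACSA-2, an astrocyte surface antigen, and the uncaptured cells were kept as flowthrough. There were 4 KO astrocyte and 4 WT astrocyte libraries (1 mouse each), 2 KO flowthrough and 2 WT flowthrough libraries. Libraries are named by the mouse number in their titles: KO mice 60 and 132 and WT mice 56 and 64 gave both fractions, and KO mice 62 and 73 and WT mice 57 and 78 gave astrocytes alone. The time of day of collection is not given in the sources used here.

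EGFL6 is a secreted protein with epidermal growth factor (EGF) repeats, an RGD motif bound by integrins, and a MAM domain. Nephronectin, the product of Npnt, has the same layout. Both are deposited in basement membranes and bind integrin α8β1, nephronectin in the developing mouse kidney and EGFL6 around mouse hair follicles. EGFL7 is secreted mainly by endothelial cells, acts on the forming vessel tube and can bind Notch receptors, and its gene hosts the microRNA miR-126. EGFL8 is the paralogue of EGFL7, with the same EMI and EGF domains, and less is known of what it does. None of the 4 is a classical ligand of the EGF receptor.

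On the GRCm38 coordinates of the files, Egfl6 (ENSMUSG00000000402) lies on the minus strand of chromosome X, from 166523007 to 166585720, with 2704 exonic bases. Egfl7 (ENSMUSG00000026921) lies on the plus strand of chromosome 2, from 26580014 to 26593120, with 3581 exonic bases. Egfl8 (ENSMUSG00000015467) is a short gene on the minus strand of chromosome 17, from 34613349 to 34615971, with 1761 exonic bases. Npnt (ENSMUSG00000040998) lies on the minus strand of chromosome 3, from 132881745 to 132950291, with 5026 exonic bases.

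The bases just upstream of Egfl6 and Egfl8 are shown because these 2 genes were higher in KO than in WT libraries, and because BMAL1 acts through short sites in DNA. They are the 250 bases before the RefSeq start (GRCm38.p6), read 5′ to 3′ on the minus strand, chrX:166585717-166585966 for Egfl6 and chr17:34615972-34616221 for Egfl8. Capitals mark a match to AGGTCA, or to its reverse complement TGACCT, the half-site that ROR and REV-ERB receptors of the clock bind.
Egfl6: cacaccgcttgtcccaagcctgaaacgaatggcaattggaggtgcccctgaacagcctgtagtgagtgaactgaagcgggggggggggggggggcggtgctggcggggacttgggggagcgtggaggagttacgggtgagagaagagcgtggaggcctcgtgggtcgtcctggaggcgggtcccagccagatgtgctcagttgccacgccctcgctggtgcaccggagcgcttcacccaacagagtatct
Egfl8: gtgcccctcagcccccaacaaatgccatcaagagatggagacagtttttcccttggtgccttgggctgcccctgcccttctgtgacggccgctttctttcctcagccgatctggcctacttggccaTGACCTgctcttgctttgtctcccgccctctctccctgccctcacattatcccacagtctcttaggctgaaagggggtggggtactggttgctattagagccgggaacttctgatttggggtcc
The E-box CACGTG, bound by BMAL1 with CLOCK and the same on both strands, was in neither window, nor in any of the other 5 windows of Egfl7 and Npnt; 6.02% of all 32851 promoter windows of this length hold it. The D-box TTATGTAA, searched on both strands (reverse complement TTACATAA), was also in none of the 7, against 0.819% of all windows. A half-site stood 124 bases before the start in Egfl8, 150 bases before the second start of Egfl7 and 188 bases before the first start of Npnt, and Egfl6 had none; 14% of all windows hold one. No 2 of these motifs overlapped in a window. The Egfl6 window has 64.8% GC and 15 CpG dinucleotides and the Egfl8 window 57.2% GC and 5, against medians of 52.4% and 6 over all windows. These matches describe the letters of the windows alone.

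Libraries held 38691406 to 51551942 counted reads, so that 3 counts, taken as the floor, equal 0.0582 to 0.0775 CPM (counts per 1000000 counts of the library). Arntl, the gene to be deleted, was not lower in KO astrocytes. Every KO astrocyte library was above every WT one, as was so in this direction for 1.89% of genes. It had 401, 428, 645 and 628 counts in KO astrocytes 60, 62, 73 and 132, against 360, 239, 242 and 374 in WT astrocytes 56, 57, 64 and 78 (log2 fold change 0.66 ± 0.19 SE, edgeR adjusted p = 0.473). In flowthrough it had 261 and 284 counts in KO 60 and 132, against 292 and 217 in WT 56 and 64, and these overlapped (0.08 ± 0.26 SE, adjusted p = 1). KO and WT here therefore name the labels. Counts are per gene, and what they hold of the deleted exons was not tested. KO 73 and WT 78 are female-type libraries (Xist counts of 2411 and 1133), and all others are male-type, so each astrocyte group holds 1 female-type library and the flowthrough groups hold none. Of the 12 astrocyte markers, 12 were called higher in astrocytes than in flowthrough, where 24.8% of all genes were. So were 10 of 10 neuron, 6 of 10 oligodendrocyte precursor (1 was lower) and 5 of 10 oligodendrocyte markers, so the capture did not enrich astrocyte RNA alone. Markers of microglia (10 of 10), choroid plexus (8 of 8) and endothelial cells (11 of 12) were called lower, where 24.4% of all genes were. The mural, fibroblast and ependymal lists had 3 of 10, 2 of 10 and 1 of 8 called lower, and 1 fibroblast marker was called higher. No marker of the 10 cell type lists was at 0 in any library, and astrocyte libraries held oligodendrocyte markers (summed CPM of 20395 to 38522) and neuron markers (1360 to 3080). Fewer cells of a type and less RNA per cell cannot be told apart in these bulk libraries.

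Egfl6 was higher in KO than in WT astrocytes in every library. Levels are CPM scaled by TMM over all 12 libraries. Egfl6 was at 58.3, 44.1, 32.8 and 36.5 CPM in KO astrocytes 60, 62, 73 and 132, against 14.1, 13.0, 10.8 and 12.6 CPM in WT astrocytes 56, 57, 64 and 78. The lowest KO library, the female-type KO 73, was above the highest WT library, WT 56, as was so in this direction for 1.89% of genes. The raw counts behind these levels were 1726 to 2463 in KO and 444 to 673 in WT astrocytes, far above the floor. The means were 42.9 ± 11.3 CPM in KO and 12.6 ± 1.35 CPM in WT astrocytes (SD, n = 4 each), and the KO libraries spread more. In the fit of the 8 astrocyte libraries the log2 fold change was 1.77 ± 0.19 (SE), or 3.42-fold. This contrast, in which 43 of 18527 genes were called (0.232%, with 0.146% higher in KO and 0.0864% lower), is the one that led to Egfl6, and nothing is read from its place among them. Without KO 73 and WT 78 the log2 fold change was 1.88.

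In flowthrough the same direction was measured at lower levels. Egfl6 was chosen for its astrocyte difference, but with earlier results of these data known. Egfl6 was at 22.3 CPM in KO flowthrough 60 and 7.39 CPM in KO flowthrough 132, against 2.46 and 1.56 CPM in WT flowthrough 56 and 64. Both KO libraries were above both WT libraries, as they were for 17.1% of all genes tested, and the KO pair spread widely. The means were 14.9 ± 10.6 CPM in KO and 2.01 ± 0.64 CPM in WT flowthrough (SD, n = 2 each). The log2 fold change was 2.88 ± 0.47 (SE), with an interval of 2 SE from 1.95 to 3.81. It did not pass the adjustment over 20997 genes (edgeR quasi-likelihood model across all genes, unadjusted p = 5.77e-05, adjusted p = 0.395), where 1 gene was called (0.00476%). By p, Egfl6 ranked 3 among all genes of that comparison. DESeq2 called it (adjusted p = 3.27e-06), which was the 1 call among 7 alternative fits. The highest adjusted p among those 7 was 0.862. Without KO flowthrough 60 the log2 fold change was 1.87, and without KO flowthrough 132 it was 3.47, so KO flowthrough 60 and 132 set its size. The flowthrough libraries came from mice that also gave astrocyte libraries, so they are not other animals. The spread behind the edgeR p was pooled over all 12 libraries, the astrocyte libraries that led to Egfl6 among them.

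**Figure D1:**
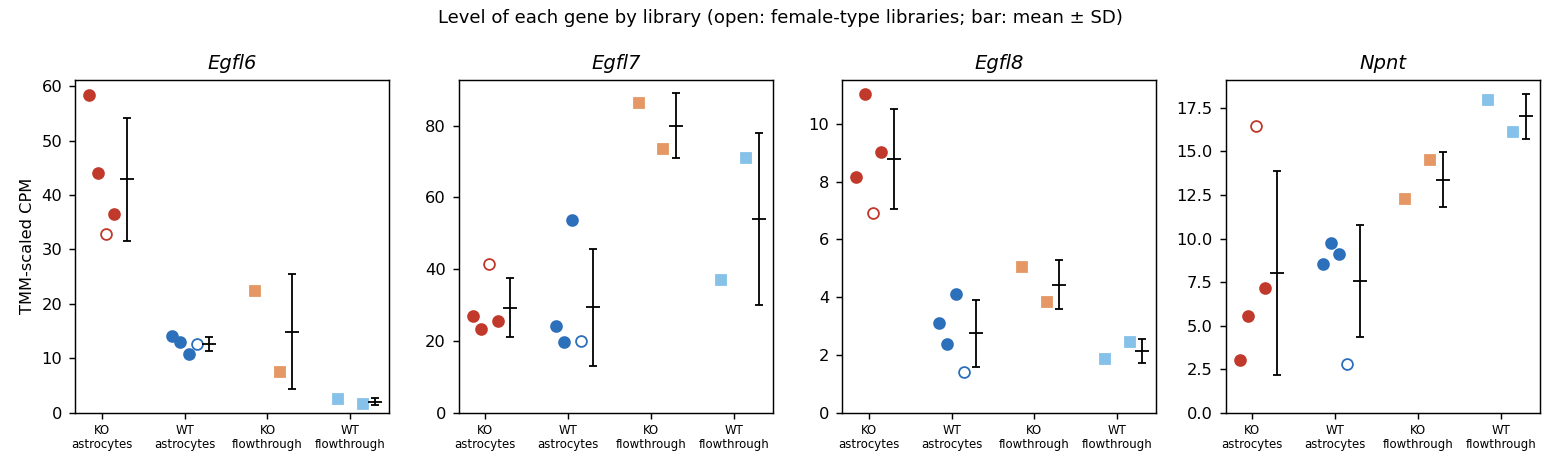
Each panel plots 1 gene in CPM (TMM-scaled, axis from 0) in KO astrocytes, WT astrocytes (4 libraries each), KO flowthrough and WT flowthrough (2 libraries each); points are libraries (open for the female-type KO 73 and WT 78) and black bars are group mean ± SD. Egfl6 and Egfl8 show KO above WT with no overlap in either fraction, as did 118 of the 18527 genes tested in both (0.637%), while Egfl7 and Npnt overlap in astrocytes.

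Marker RNA of several cell types differed between the flowthrough libraries beside Egfl6. The summed level of the 12 astrocyte markers was 9753 and 4499 CPM in KO flowthrough 60 and 132, against 4865 and 3359 CPM in WT flowthrough 56 and 64. KO flowthrough 60, the library with the most Egfl6 of the 4, also had the most astrocyte marker RNA, but KO 132 was below WT 56 in this sum and above it in Egfl6. Neuron markers summed to 1267 and 593 CPM in KO flowthrough 60 and 132, against 588 and 458 CPM in WT flowthrough 56 and 64. Oligodendrocyte markers summed to 29862 and 15397 CPM in KO, against 12434 and 14130 CPM in WT flowthrough. Oligodendrocyte precursor markers summed to 243 and 189 CPM in KO, against 174 and 136 CPM in WT flowthrough. These 3 sums were higher in both KO than in both WT flowthrough libraries, for neuron markers by little (593 against 588 CPM). So were endothelial (1156 and 1330, against 673 and 1044 CPM) and mural sums (737 and 785, against 667 and 658 CPM). Choroid plexus and ependymal sums were lower in both KO. Of all genes tested, 17.1% were higher and 16.5% lower in this way. The part of these cell types in the level of Egfl6 was not tested. Mitochondrial genes held 12.7% and 7.95% of counts in KO flowthrough 60 and 132, against 8.20% and 4.66% in WT flowthrough 56 and 64. In astrocyte libraries their share ran from 12.6% (KO 73) to 21.4% (WT 78). Its part in the level of Egfl6 was not tested either. In astrocytes the astrocyte marker sums overlapped, at 12247 to 25341 CPM in KO and 17825 to 23462 CPM in WT libraries. Per 100 CPM of summed markers, Egfl6 stood at 0.239, 0.174, 0.268 and 0.178 CPM in KO astrocytes 60, 62, 73 and 132, against 0.0712, 0.0611, 0.0607 and 0.0539 CPM in WT astrocytes 56, 57, 64 and 78. On the same scale it was at 0.229 and 0.164 CPM in KO flowthrough, against 0.0506 and 0.0465 CPM in WT flowthrough. Taken per astrocyte marker RNA, the KO values of both fractions lay together and above all WT values. In astrocytes this ratio contains the contrast that led to Egfl6, so nothing is read from its separation there. The part of astrocyte RNA in the level of Egfl6 was not tested. The list of astrocyte markers includes Gfap, the intermediate filament gene of reactive astrocytes. Gfap itself averaged 2095 CPM in KO and 1031 CPM in WT astrocytes.

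The KO minus WT difference of Egfl6 was 1.12 ± 0.53 (SE, log2) larger in flowthrough than in astrocytes. Of all 20997 genes edgeR called 0 for this difference, DESeq2 called 8, and 3.94% had an unadjusted p under 0.05. The difference contains the contrast that led to Egfl6 and is given with no test. It was 0.10 without KO flowthrough 60 and 1.70 without KO flowthrough 132.

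Npnt, the closest relative of Egfl6 by domain structure, showed another pattern. It was at 3.01, 5.52, 16.4 and 7.14 CPM in KO astrocytes 60, 62, 73 and 132, against 8.55, 9.76, 9.12 and 2.80 CPM in WT astrocytes 56, 57, 64 and 78. The groups overlapped, with the highest and the lowest library being KO 73 and WT 78, the female-type pair. The means were 8.03 ± 5.86 and 7.56 ± 3.21 CPM (SD, n = 4 each), and the log2 fold change was 0.10 ± 0.52 (SE). Without KO 73 and WT 78 it was -0.80, so the sign rests on these libraries. KO 73 also had the lowest summed astrocyte markers of the astrocyte libraries (12247 CPM), and WT 78 the highest of the WT ones (23462 CPM). Leaving both out therefore changes more than sex type. In flowthrough, Npnt was at 12.3 and 14.5 CPM in KO 60 and 132, against 17.9 and 16.1 CPM in WT 56 and 64. Both KO libraries were below both WT libraries, as they were for 16.5% of all genes tested. The log2 fold change was -0.35 ± 0.67 (SE, edgeR adjusted p = 1). Its interval of 2 SE runs from -1.69 to 0.99.

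Markers of ependymal cells, which line the ventricles, and of the choroid plexus followed Npnt in part. The summed level of 8 ependymal markers was 114, 240, 892 and 266 CPM in KO astrocytes 60, 62, 73 and 132, against 416, 311, 600 and 58.3 CPM in WT astrocytes 56, 57, 64 and 78. KO 73 was again the highest astrocyte library and WT 78 the lowest, as they also were for summed microglia markers (2924 and 610 CPM). WT astrocytes 57 had more Npnt than WT astrocytes 64 (9.76 against 9.12 CPM) at a lower ependymal sum. In flowthrough the ependymal sums were 297 and 505 CPM in KO, against 694 and 802 CPM in WT libraries. WT flowthrough 56 had more Npnt than WT flowthrough 64 (17.9 against 16.1 CPM) at the lower ependymal sum. Per 100 CPM of these markers, Npnt was at 1.84 to 2.69 CPM in KO and 1.52 to 4.80 CPM in WT astrocytes, and at 4.13 and 2.87 CPM in KO and 2.58 and 2.01 CPM in WT flowthrough. Per marker RNA the KO and WT flowthrough libraries were thus in the other order. Choroid plexus markers were also highest in KO 73 among the astrocyte libraries, but lowest in KO 62. Over 8 markers they summed to 4349, 1819, 9417 and 4857 CPM in KO astrocytes 60, 62, 73 and 132, against 5579, 4210, 5910 and 2014 CPM in WT astrocytes 56, 57, 64 and 78. In flowthrough they summed to 19568 and 23652 CPM in KO, against 34324 and 40418 CPM in WT libraries. The part of ependymal and choroid plexus cells in the level of Npnt was not tested.

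Egfl8 was higher in KO than in WT libraries of both fractions. It was at 8.15, 11.0, 6.90 and 9.01 CPM in KO astrocytes 60, 62, 73 and 132, against 3.09, 2.37, 4.12 and 1.39 CPM in WT astrocytes 56, 57, 64 and 78. The groups did not overlap, as was so in this direction for 1.89% of genes. With raw counts of 344 to 466 in KO and 59 to 185 in WT astrocytes, Egfl8 rested on fewer reads than Egfl6. The means were 8.78 ± 1.74 CPM in KO and 2.74 ± 1.15 CPM in WT astrocytes (SD, n = 4 each). The log2 fold change was 1.68 ± 0.32 (SE), or 3.20-fold. In flowthrough it was at 5.03 and 3.84 CPM in KO 60 and 132, against 1.85 and 2.43 CPM in WT 56 and 64. Again the groups did not overlap, as for 17.1% of genes in this direction. The log2 fold change of 1.05 ± 0.43 (SE) missed the threshold after adjustment (edgeR adjusted p = 1). Its difference from the astrocyte value was -0.62 ± 0.52 (SE, adjusted p = 0.934).

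Egfl7 showed no KO minus WT difference beyond its spread in astrocytes. It was at 26.8, 23.2, 41.5 and 25.7 CPM in KO astrocytes 60, 62, 73 and 132, against 24.1, 19.7, 53.6 and 20.0 CPM in WT astrocytes 56, 57, 64 and 78. The groups overlapped, and WT 64 stood apart above all others. The means were 29.3 ± 8.26 and 29.4 ± 16.3 CPM (SD, n = 4 each), and the log2 fold change was 0.00 ± 0.34 (SE). Without WT 64 it was 0.47. In flowthrough Egfl7 was at 86.4 and 73.6 CPM in KO 60 and 132, against 36.9 and 71.0 CPM in WT 56 and 64. Both KO libraries were above both WT libraries, as for 17.1% of genes, although KO 132 and WT 64 were close. The log2 fold change was 0.57 ± 0.48 (SE, edgeR adjusted p = 1), with an interval of 2 SE from -0.39 to 1.53. The KO minus WT difference was 0.57 ± 0.59 (SE, adjusted p = 0.934) larger in flowthrough than in astrocytes.

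**Figure D2:**
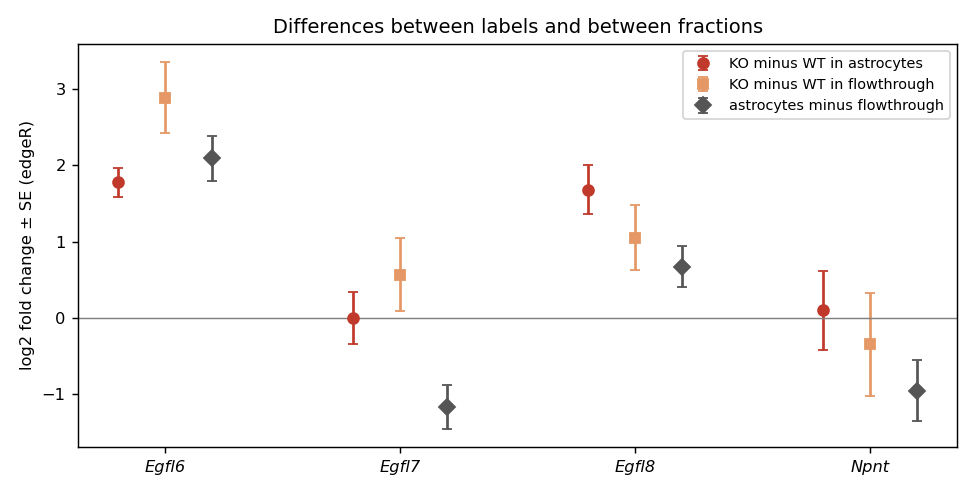
Log2 fold changes of the 4 genes (points, edgeR estimates) with 1 SE to each side, for KO minus WT in astrocytes, KO minus WT in flowthrough, and astrocytes minus flowthrough. Egfl6 and Egfl8 lie above 0 in all 3 contrasts; Egfl7 and Npnt lie near 0 in the astrocyte contrast and below 0 between the fractions.

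Endothelial markers moved with Egfl7. The sum of 12 such markers was 342 to 645 CPM in KO and 268 to 805 CPM in WT astrocytes, with 805 CPM in WT 64, and 1156 to 1330 CPM in KO and 673 to 1044 CPM in WT flowthrough. Per 100 CPM of these markers Egfl7 was at 4.93 to 7.84 CPM in KO and 6.45 to 7.45 CPM in WT astrocytes, and at 7.48 and 5.54 CPM in KO and 5.49 and 6.81 CPM in WT flowthrough. The ratio therefore varied less across the 12 libraries than Egfl7 itself, and WT 64 no longer stood apart. The part of endothelial RNA in the level of Egfl7 was not tested.

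**Figure D3:**
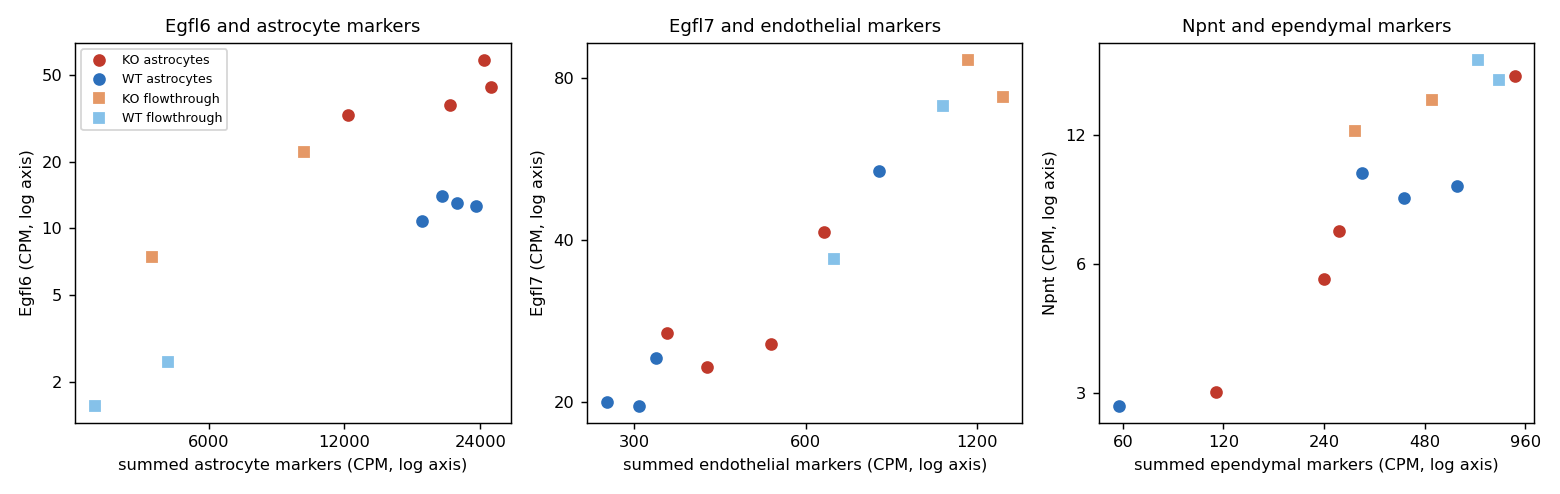
CPM of Egfl6, Egfl7 and Npnt (vertical, log axes) against the summed CPM of astrocyte, endothelial and ependymal markers (horizontal, log axes) in the 12 libraries, coloured by group. Egfl7 is high where the endothelial sum is high when all 12 libraries are read together. Even so, KO flowthrough 60 has more Egfl7 than KO flowthrough 132 at a lower sum. For Egfl6 the KO libraries lie above WT libraries of a like astrocyte sum, and KO flowthrough 60 (22.3 CPM) exceeds every WT astrocyte library. The astrocyte libraries of the Egfl6 panel hold the contrast that led to its choice.

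The 4 genes differed in their estimates between the fractions, and for each of them the libraries of both fractions overlapped. Egfl6 was 4.25-fold higher in astrocytes than in flowthrough (log2 2.09 ± 0.29 SE, edgeR adjusted p = 2.06e-04), and was higher in the astrocyte library in 4 of the 4 mice with both. Egfl7 was lower in astrocytes (-1.16 ± 0.28, adjusted p = 0.00559), again in 4 of 4 mice. These calls stand against 24.8% of all genes called higher in astrocytes and 24.4% called lower, 49.2% together. Egfl8 was at 0.67 ± 0.27 (adjusted p = 0.0546) and Npnt at -0.95 ± 0.40 (adjusted p = 0.0676), neither past the threshold. With the mouse as a block, in the 8 libraries of the 4 mice, Egfl8 was called higher in astrocytes (0.85, adjusted p = 0.00640) and Npnt lower (-1.23, adjusted p = 0.00142). That fit also leaves out the 4 astrocyte libraries of the other mice, KO 73 and WT 78 among them. Without KO 73 and WT 78 alone, and with no block, both were called too (Egfl8 at 0.83, adjusted p = 0.00632; Npnt at -1.13, adjusted p = 0.00129). The 2 integrin ligands with the same layout, Egfl6 and Npnt, thus had estimates of opposite sign between the fractions, and so did the paralogues Egfl8 and Egfl7.

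Per kilobase of exon, the order of the genes differed between groups. In TMM-scaled reads per kilobase of exon (RPKM), KO astrocytes had Egfl6 at 15.9 ± 4.18, Egfl7 at 8.18 ± 2.31, Egfl8 at 4.98 ± 0.99 and Npnt at 1.60 ± 1.17 (SD, n = 4). In WT astrocytes Egfl7 came first at 8.20 ± 4.55 RPKM, before Egfl6 at 4.67 ± 0.50, Egfl8 at 1.56 ± 0.65 and Npnt at 1.504 ± 0.639 (SD, n = 4). In KO astrocytes the ranges of neighbours in this order did not overlap. In WT astrocytes those of Egfl7 (5.50 to 14.98 RPKM, the top being WT 64) and Egfl6 (4.00 to 5.20 RPKM) did not overlap either, while those of Egfl8 and Npnt did. In KO flowthrough Egfl7 led at 22.3 ± 2.52 RPKM, followed by Egfl6 at 5.49 ± 3.91, Npnt at 2.66 ± 0.31 and Egfl8 at 2.52 ± 0.48 (SD, n = 2), the last 3 with overlapping ranges. In WT flowthrough Egfl7 was at 15.1 ± 6.73 RPKM, Npnt at 3.39 ± 0.26, Egfl8 at 1.22 ± 0.24 and Egfl6, the lowest, at 0.744 ± 0.235 (SD, n = 2). Egfl6 was thus the first of the 4 in KO astrocytes and the last in WT flowthrough. All exonic bases were used as the length, and Egfl8 shares 34.9% of its own with Gm20460, listed at 0 in every library. How reads on shared bases were counted is not given. The RPKM of Egfl8, its place in each order and its overlap with neighbours are therefore uncertain.

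The genes whose profiles were most like each member were named by the root mean square difference of mean-centred log2 CPM over the 12 libraries, among 9638 genes (9639 for Egfl8). The libraries share depth and cell makeup, and no test is given. For Egfl6 they were Gfap (0.51), Kcne1l (0.51), Myh15 (0.56), Them4 (0.56) and Fabp7 (0.59), the brain fatty acid binding protein of astrocytes and radial glia. Fabp7 averaged 2426 CPM in KO and 473 CPM in WT astrocytes, and 932 CPM in KO and 170 CPM in WT flowthrough. For Egfl7 they were Ly6c1 (0.18), Kank3 (0.20), Robo4 (0.20), Rgs5 (0.21) and Adgrl4 (0.21). Of these, Ly6c1, Robo4 and Adgrl4 are endothelial surface proteins and Rgs5 marks pericytes. These differences were smaller, but the profile of Egfl7 also varied less (SD 0.74, against 1.52 for Egfl6), and they are not scaled to that spread. For Npnt the genes most alike were Efcab1 (0.24), Maats1 (0.26), Pih1d2 (0.28), Spef2 (0.28) and Gm4951 (0.29), of which Maats1 and Spef2 encode proteins of motile cilia. For Egfl8 they were Vstm4 (0.38), Plat (0.38), Slc20a2 (0.50), Mmp14 (0.50) and Rab37 (0.52). Plat, tissue plasminogen activator, averaged 366 CPM in KO and 119 CPM in WT astrocytes, and 190 CPM in KO and 153 CPM in WT flowthrough.

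The genes beside Egfl6 on chromosome X had estimates much nearer to 0. Tceanc, 4.44 kb away, was at -0.01 ± 0.16 (SE, log2 KO minus WT) in astrocytes and 0.10 ± 0.20 in flowthrough. Rab9, a small GTPase of endosomes, was at -0.07 ± 0.14 and 0.24 ± 0.21. Trappc2 was at 0.19 ± 0.12 and 0.25 ± 0.17. On the other side the nearest tested gene, the pseudogene Rpl7a-ps11, is 268 kb away and was at -0.20 ± 0.25 and 0.39 ± 0.32, and Gm15232 was at 0.36 ± 0.40 and 0.58 ± 0.45. Gm8817 was tested in flowthrough alone, at -0.04 ± 0.99. None of them was called in either comparison (edgeR).

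**Figure D4:**
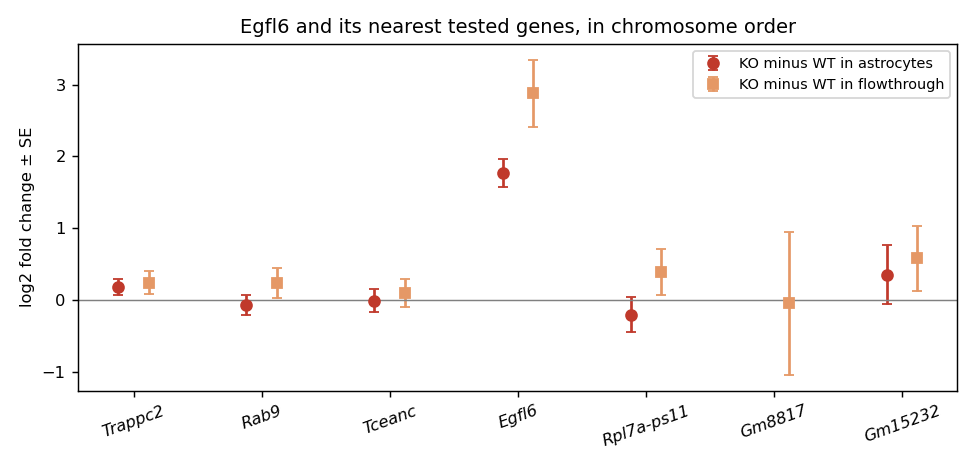
Log2 fold changes (points, edgeR) with 1 SE to each side of Egfl6 and of the nearest tested genes on each side of it, KO minus WT in astrocytes and in flowthrough. Egfl6 lies at 1.77 and 2.88 and its neighbours between -0.20 and 0.58.

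Overlapping genes limit what is counted for Egfl7 and Egfl8, since the strand setting of the counting is not given in the sources used here. Egfl8 shares 101 exonic bases (5.74%) with Agpat1 on the other strand, which had 799 to 1461 counts a library and was at -0.11 ± 0.16 in astrocytes (SE, adjusted p = 0.995). It also shares 615 bases (34.9%) with Gm20460 on its own strand, which was listed at 0 in all 12 libraries. Ppt2, a lysosomal thioesterase gene 0.69 kb upstream of Egfl8, was at 0.00 ± 0.20 in astrocytes. Egfl7 shares 64 bases (1.79%) with Agpat2 on the other strand, 264 bases (7.37%) with Gm20532 and the 73 bases of Mir126a, both of the last listed at 0 throughout. Nothing can be said of miR-126 from these counts. Egfl6 shares no exonic base with another gene of the files.

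Further genes were read from lists, 116 genes in 7 lists. They cover RGD-binding integrins, nephronectin partners, basement membrane genes, lysyl oxidases, Notch genes, other EGF-domain genes and the EGF receptor family with its ligands. Counts over all lists are therefore not counts of EGFL6 or nephronectin partners alone. In KO minus WT astrocytes 0 of the 108 tested were called by edgeR, where 0.232% of all genes were. Of these 108, 8 had an unadjusted p under 0.05 (5.37% of all genes did), DESeq2 called 2, Frem2 and Mfge8, and limma-voom called 0. In flowthrough 0 of 111 were called by edgeR, with 3 at an unadjusted p under 0.05 (4.63% of all genes), and DESeq2 and limma-voom called 0. Between the fractions 65 of 111 were called (58.6%, against 49.2% of all genes), 37 higher and 28 lower in astrocytes.

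Among the 9 RGD-binding integrins, the receptor side of EGFL6 and nephronectin, estimates ran from 0.00 to 0.92 in KO minus WT astrocytes, with a median of 0.12 (0.00 over all genes). Integrin α8, Itga8, was at 0.05 ± 0.49 there, and 0 of the 9 was called in either KO minus WT comparison. In flowthrough they ran from -0.79 to 0.53, with a median of 0.11 (0.04 over all genes). Between the fractions 6 of 9 were called, against 49.2% of all genes. Higher in astrocytes was 1, Itgb8 (0.75 ± 0.17, adjusted p = 0.00395), the integrin subunit that with αv activates latent TGFβ. There were 5 lower, with Itgb5 at -1.82 ± 0.13 (adjusted p = 6.59e-06), Itgb3 at -2.83 ± 0.39 and Itga5, of the fibronectin receptor, at -1.88 ± 0.34. The partner chain Itgb1 was at -0.33 ± 0.10 (adjusted p = 0.0206).

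Of the 11 nephronectin partners, which hold it in the matrix of the mouse kidney or take part in the same step of kidney outgrowth, Frem2 was at 6.73 CPM in KO and 3.79 CPM in WT astrocytes (0.84 ± 0.20, edgeR adjusted p = 0.259). The median over the 9 tested was 0.22 in astrocytes, and over the 10 tested in flowthrough it was 0.26. Fras1, a matrix protein that binds nephronectin, was at -0.86 ± 0.29 in flowthrough (adjusted p = 1). Between the fractions 8 of 10 were called, against 49.2% of all genes. In astrocytes 5 were higher, among them Gfra1, the GDNF co-receptor (1.25 ± 0.20), and the scaffold gene Grip1 (1.60 ± 0.29). There were 3 lower, among them Fras1 (-1.01 ± 0.17) and Frem1 (-0.84 ± 0.20). The named genes had adjusted p of 5.24e-04 (Gfra1), 0.00101 (Grip1), 7.29e-04 (Fras1) and 0.00430 (Frem1).

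In the basement membrane list, laminins, nidogens, perlecan, agrin and collagens, 0 of 16 were called in KO minus WT in either fraction. Nid2 was at 4.77 CPM in KO and 2.48 CPM in WT astrocytes (0.95 ± 0.40, adjusted p = 0.882). Medians were 0.14 in astrocytes and 0.33 in flowthrough. Between the fractions 7 of 16 were called, near the share of all genes (49.2%). In astrocytes 6 were lower, led by Lamb1 (-1.55 ± 0.19), Nid2 (-2.04 ± 0.29) and Col15a1 (-2.32 ± 0.45). There was 1 higher, Lama2, the laminin chain of astrocyte endfeet (1.21 ± 0.20, adjusted p = 5.64e-04). Lysyl oxidases, which cross-link collagen and elastin, had 0 of 4 called in astrocytes (median 0.01) and 0 of 5 in flowthrough (median -0.25). Loxl4 was the 1 of 5 called between the fractions (49.2% of all genes were), at -1.59 ± 0.46.

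Notch receptors, ligands and targets, the side of EGFL7, had 0 of 15 called in KO minus WT in either fraction. The median was -0.21 in astrocytes and 0.36 in flowthrough. Hes1, a Notch target, was at 12.7 CPM in KO and 19.2 CPM in WT astrocytes (-0.59 ± 0.22, adjusted p = 0.771). Hes5 was at 3.18 CPM in KO and 1.14 CPM in WT flowthrough (1.47 ± 0.55, adjusted p = 1). Between the fractions 8 of 15 were called, near the share of all genes (49.2%). In astrocytes 4 were higher, among them Hey1 (1.15 ± 0.17) and Hes5 (1.86 ± 0.35), and 4 lower, among them Notch2 (-1.05 ± 0.23) and Notch4, the endothelial receptor (-1.20 ± 0.26).

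The list of 45 other EGF-domain matrix and MEGF genes had 0 of 43 called in either KO minus WT comparison, with medians of 0.03 in astrocytes and 0.02 in flowthrough. The smallest p in astrocytes belonged to Mfge8, an RGD-bearing bridge to phosphatidylserine in phagocytosis, at 586 CPM in KO and 1209 CPM in WT astrocytes (-1.04 ± 0.22, adjusted p = 0.160 by edgeR). Between the fractions 21 of 43 were higher and 8 lower in astrocytes, with a median of 0.68. Over all genes 24.8% were called higher and 24.4% lower. Among the higher were Megf10 (1.74 ± 0.23), an engulfment receptor of astrocytes, Megf11 (1.59 ± 0.22), Nell2 (1.66 ± 0.21) and Dner (1.47 ± 0.21), a neuronal Notch ligand. Fbn1, fibrillin of the microfibrils, was lower (-1.56 ± 0.22, adjusted p = 2.17e-04).

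The EGF receptor family and its ligands had 0 of 12 called in astrocytes (median 0.12) and 0 of 13 in flowthrough (median 0.13). Erbb3 was at 19.8 CPM in KO and 11.2 CPM in WT astrocytes (0.82 ± 0.37, adjusted p = 0.923). Egfr itself was at 14.6 CPM in KO and 18.7 CPM in WT astrocytes (-0.35 ± 0.17, adjusted p = 0.960). Between the fractions 6 of 13 were called, near the share of all genes (49.2%). In astrocytes 5 were higher, among them Hbegf (1.44 ± 0.20), Egfr (0.96 ± 0.17) and Erbb4 (1.19 ± 0.27), and 1 was lower, Tgfa (-0.52 ± 0.14).

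**Figure D5:**
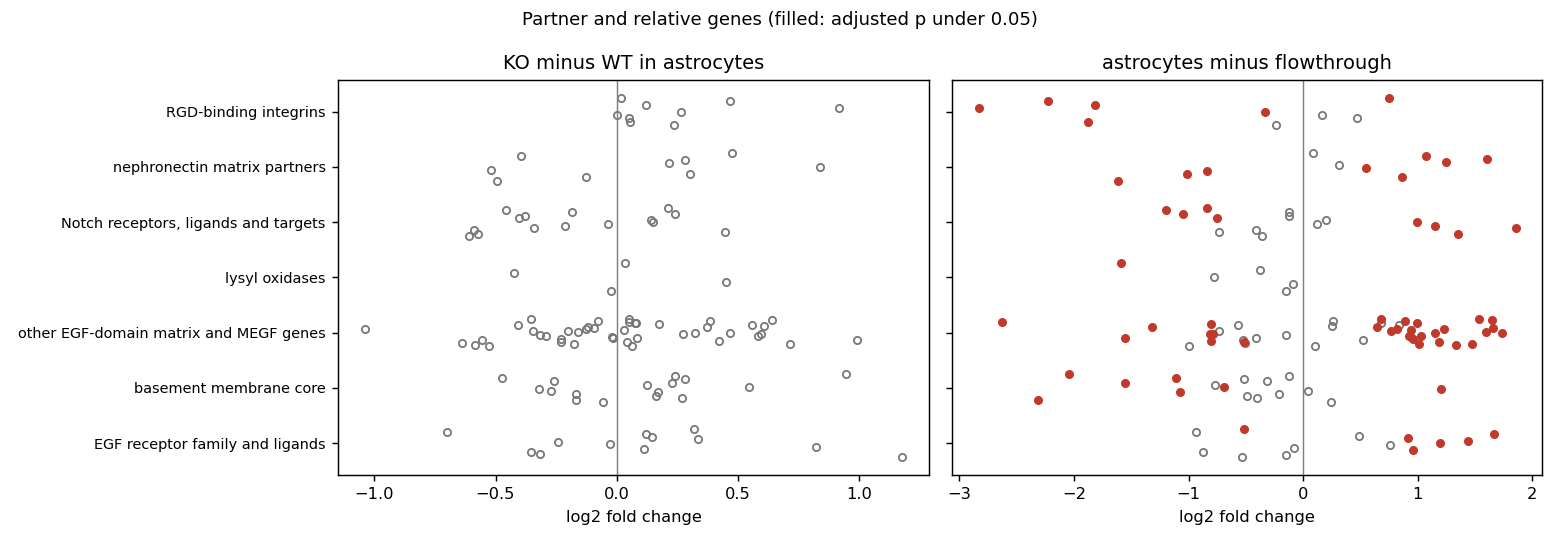
Log2 fold changes (horizontal, edgeR) of the tested genes of the 7 lists, 1 row a list, for KO minus WT in astrocytes (left) and astrocytes minus flowthrough (right); points are genes and filled points passed an adjusted p of 0.05. There are 0 filled points on the left and 65 called genes on the right (58.6%, against 49.2% of all genes). On the right, integrins and basement membrane genes lie mostly below 0 and other EGF-domain genes mostly above.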

How the data were processed

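RNA was measured in 12 libraries from 8 mice. Per the file headers, the authors deposited for each library a raw read count, a CPM and an RPKM for each of 41388 genes, with exon coordinates and summed exon length. The deposited CPM is the count per 1000000 counts of the library, and the deposited RPKM is that CPM per kilobase of exon, with no other factor. The tools and build named are STAR 2.5.1a, featureCounts 1.4.6-p5, Subread, bcl2fastq and GRCm38, per the submitters' processing notes. Neither the annotation release nor the settings for strand and multi-mapped reads are stated there, so overlapping and near-identical genes are uncertain. The deposited counts were tested. The deposited CPM and RPKM served as a check, and levels in the text were recomputed from counts with TMM factors. Total counts per library limit precision as given with the values, and floors cover counting error only, since no molecular identifiers are named.

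Counts were fitted with edgeR 4.0.16 in R 4.3.3 (quasi-likelihood, TMM, filterByExpr by group, two-sided, Benjamini-Hochberg over all genes tested, called at an adjusted p under 0.05). KO minus WT in astrocytes used the 8 astrocyte libraries. KO minus WT in flowthrough, its difference from the astrocyte contrast, and astrocytes minus flowthrough used all 12 libraries with 4 group means, so that the spread was pooled. Scripts were tested on simulated data. Alternatives were RLE scaling, a CPM of at least 1 in 2 libraries or no filter, DESeq2 1.42.0, limma-voom (limma 3.58.1), all 12 or the 4 flowthrough libraries alone, no female-type libraries, a replicate block by mouse, and each library left out.

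A number shared by titles of both fractions marks 1 animal (4 mice). Deviations of such paired libraries from their group means correlated at 0.155 (mouse 56), 0.352 (60), 0.251 (64) and -0.007 (132).

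Genes named beside the members follow a rule: of each list, the genes called (up to 6 with the smallest p) and the 2 with the smallest p; the 3 nearest tested genes on each side of Egfl6; genes whose exons overlap a member; and the 5 genes most like each member with a mean log2 CPM of at least 3. Itga8, Ppt2 and the gene roles given in passing are exceptions. Log2 CPM used a prior count of 2. The members and lists were chosen with earlier results of these data known. Protein sequences were not used here.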

Additional observations from a re-analysis of the deposited data

Results flagged for a closer look

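Among the 28 groups of 4 astrocyte libraries examined (the 4 genes and the summed levels of 10 cell type marker lists, each in KO and WT), 2 held a library far from the other 3, and chance alone marks about 1 in 20. Egfl7 in WT astrocytes 64 was at 53.6 CPM, against 19.7 to 24.1 CPM in the other WT astrocyte libraries, a gap of 0.869 of the range of the group. The summed endothelial markers of the same library were at 805 CPM, a gap of 0.89 of the range. Per 100 CPM of those markers, Egfl7 in the 4 WT astrocyte libraries was at 6.45 to 7.45 CPM. The part of endothelial RNA in this library's Egfl7 was not tested.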

How the results depend on the processing

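The number of genes called depended on the tool. DESeq2 called 184 in KO minus WT astrocytes (43 by edgeR), 23 in flowthrough (1 by edgeR) and 8 for the difference between both contrasts (0 by edgeR, with 828 at an unadjusted p under 0.05). In flowthrough limma-voom called 0 and the 4 flowthrough libraries alone 0. Leaving out each library gave 12 to 37 in astrocytes, 0 to 5 in flowthrough and 7463 to 11458 between the fractions. Egfl6 kept its direction under all of these in every comparison: 1.74 to 1.88 in astrocytes over 7 alternatives, and 1.58 to 1.88 with a library left out. In flowthrough the log2 fold change was 2.69 to 2.89 over 7 alternatives and 1.87 to 3.47 with a library left out. Egfl8 was 1.56 to 1.74 in astrocytes and 1.03 to 1.06 in flowthrough. The contrast difference of Npnt (-0.44) turned to 0.46 without KO 73 and WT 78, to 0.57 with the replicate block, and was -0.71 to 0.19 with a library left out, above 0 without KO astrocytes 73; the cause was not tested. Between the fractions, Egfl8 was called in 3 of 7 alternatives (replicate block, without KO 73 and WT 78, and DESeq2, adjusted p = 0.0302) and Npnt in 4 (the same and limma-voom; DESeq2 0.0385, limma-voom 0.0213), and with 2 and 1 of 12 libraries left out in turn. The replicate block changed no other call of the 4 genes, between the fractions or in the contrast difference. KO and WT share no mouse, so mouse as a fixed block leaves KO minus WT without an estimate; mouse as a random block was not run. Of the lists, DESeq2 called 1 nephronectin partner and 1 other EGF-domain gene in KO minus WT astrocytes. Between the fractions, lysyl oxidases had 0 called with the CPM filter and 0 to 2 with a library left out, other EGF-domain genes 16 to 32 and basement membrane genes 5 to 11. The 2 libraries a group in flowthrough limit every value there.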
